A study of Arabidopsis thaliana with 16 samples.

Results

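Flower buds of the Arabidopsis thaliana double mutant bhlh89,91 were compared with buds of Col-0, the wild type, in low light, across all genes with measurable RNA in those buds. A gene was included if at least 4 of the 8 low-light libraries held at least 1 CPM of it (CPM, counts scaled to the library total). This kept 19953 genes of the 21309 that entered the test and the 33681 that are listed. At this limit, 332 of the included genes reached 1 CPM in exactly 4 libraries (median of their mean levels 1.15 CPM), and 268 tested genes that reached it in 3 libraries (median 0.949 CPM) were left out.

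The RNA-seq data hold 4 groups of 4 biological replicates, namely each genotype in normal light, nominally 200 µmol m-2 s-1, and in low light, where nets cut it to 50 µmol m-2 s-1 from just before bolting. The mutant came from a cross of T-DNA insertion lines in bHLH89 and bHLH91, with the inserts in the first exon, and bHLH10 carries no insert. Col-0 carries neither allele. Just 1 double mutant line stood for the genotype. Its estimated counts still put bHLH89 at 52.9% and bHLH91 at 77.0% of the Col-0 level in low light. The study's qRT-PCR, in normal light, found both transcripts far lower in this line, with bHLH91 almost absent. Counts summed over a whole gene do not show whether the RNA is intact, so these shares do not measure remaining function. AT2G31215, a gene that lies between bHLH91 and bHLH10, was named here after its values were seen. It had 0 counts in all 4 mutant libraries against 14 to 31 counts in Col-0. Its mean level was at least 7.63-fold lower in the mutant (floor of 3 counts per library). The gene is near the floor in Col-0 too, and it did not meet the CPM limit for the included genes. RNA was taken from whole buds before pollen mitosis I, so sepals, petals and carpels were measured together with the anthers. In such bulk tissue, fewer cells of a type and less RNA per cell cannot be told apart.

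The tapetum is the innermost layer of the anther wall. It feeds the developing microspores, secretes the precursors of the exine, and at the end of its life dies and leaves its lipids, proteins and phenolic compounds on the pollen surface as the pollen coat. A chain of transcription factors, DYT1, TDF1, AMS, MS188 and MS1, drives its development, and bHLH89, bHLH91 and bHLH10 are closely related bHLH proteins that form dimers with members of that chain.

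The 8 low-light libraries had totals of 21300083 to 23346158 counts. The first principal component (69.0% of the variance) separated the genotypes, and the second (9.82%) spread the mutant libraries, with column 4 apart from the others. The median SD between replicates was 0.119 on the log2-CPM scale in the mutant and 0.0916 in Col-0. Libraries are called by the column number within their group, which pairs nothing across groups. Of the marker lists for other organs, 0 of 8 floral organ identity genes and 0 of 9 carpel and ovule genes were differentially expressed genes (DEGs, defined next). Only 5.46% of all genes were DEGs, so these counts say little about organ make-up. At an adjusted p under 0.05 (edgeR, also explained next), 3 and 2 of them were higher and 0 lower, where 25.5% and 25.1% of all genes were. The summed levels of these lists were 1219 to 1378 against 1161 to 1217 TPM (transcripts scaled to length and library total) and 285 to 345 against 304 to 328 TPM in bhlh89,91 and Col-0. The tapetum markers were present in every library, with AMS at 138 TPM or more. Of 27 late pollen genes, 12 passed the CPM limit, and their sum was 47.1 to 52.9 TPM in the mutant and 101 to 121 TPM in Col-0.

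Genes were called DEGs where edgeR's quasi-likelihood F test gave a p, adjusted by Benjamini-Hochberg, under 0.01 and the log2FC (bhlh89,91 against Col-0) was 1 or more in either direction. In low light, 1090 genes (5.46%) were DEGs, of which 406 (2.03%) were higher and 684 (3.43%) lower in bhlh89,91. The falls were larger, with 212 genes lower and 72 higher by a log2FC of 2 or more. The median log2FC was 1.38 among the higher DEGs and -1.52 among the lower, against 0.00 over all genes. At an adjusted p under 0.05 with no fold limit, 10109 genes (50.7%) were called, 5094 (25.5%) higher and 5015 (25.1%) lower, so that a small difference between these genotypes was common. Counts of called genes in the lists below are to be read against these shares. The libraries of the groups did not overlap for 1044 of the 1090 DEGs, where 45.6% of all genes show no overlap. Of the DEGs, 728 were above 1 CPM in all 8 libraries. At the other end, 116 genes passed the CPM limit in Col-0 only (97 of them DEGs) and 84 in the mutant only (68 DEGs), and these had to differ. DEGs were spread over the 5 chromosomes, at 1.70% to 2.38% of genes for the higher and 3.16% to 4.09% for the lower.

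**Figure D1:**
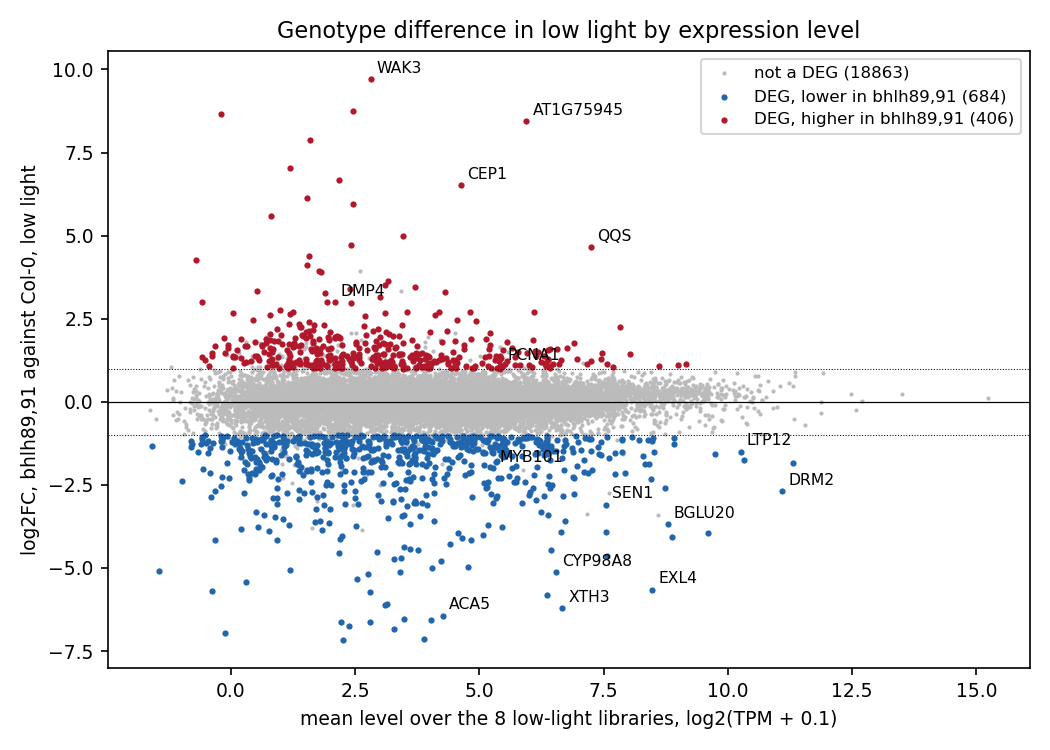
Each point is 1 of the 19953 genes, with its mean level over the 8 low-light libraries on the x axis (log2 of TPM + 0.1) and its log2FC, bhlh89,91 against Col-0, on the y axis. The dotted lines mark a log2FC of 1 and -1. The 684 lower DEGs reach the most abundant transcripts (DRM2, LTP12), and 212 of them lie at or beyond -2.

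Genes for the phenolic and lipid load of the pollen surface were among the most strongly lowered in the mutant. Windows of 250 bases before the start of the gene are shown for CYP98A8 and for EXL4, EXL6 and BGLU20, the last 3 being members of 1 run of neighbouring genes that fell together. The windows were picked because they hold the motif described here, which is missing from those of EXL5, in the same run, and of CYP98A9 and FST1, in the pathway of CYP98A8. They were read from the RefSeq annotation of TAIR10.1, 5′ to 3′ along the gene. Capitals mark each match to CANNTG, the E-box that bHLH proteins are known to bind, which reads the same on both strands.
CYP98A8, AT1G74540, chr1:28012930-28013179, plus strand: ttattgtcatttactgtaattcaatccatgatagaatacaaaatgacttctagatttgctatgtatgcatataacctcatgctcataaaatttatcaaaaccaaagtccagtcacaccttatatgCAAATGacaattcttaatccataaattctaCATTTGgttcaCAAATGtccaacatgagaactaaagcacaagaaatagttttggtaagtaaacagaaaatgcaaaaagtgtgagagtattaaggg
EXL4, AT1G75910, chr1:28501184-28501433, plus strand: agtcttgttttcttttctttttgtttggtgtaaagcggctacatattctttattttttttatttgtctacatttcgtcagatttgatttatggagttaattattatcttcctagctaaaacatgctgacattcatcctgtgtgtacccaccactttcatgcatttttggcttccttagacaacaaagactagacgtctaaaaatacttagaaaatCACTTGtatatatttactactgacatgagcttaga
EXL6, AT1G75930, chr1:28507822-28508071, plus strand: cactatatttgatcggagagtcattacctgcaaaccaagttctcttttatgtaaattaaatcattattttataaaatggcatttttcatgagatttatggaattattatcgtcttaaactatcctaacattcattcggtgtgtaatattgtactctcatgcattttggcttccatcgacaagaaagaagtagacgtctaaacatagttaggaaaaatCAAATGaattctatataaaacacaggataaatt
BGLU20, AT1G75940, chr1:28510892-28511141, plus strand: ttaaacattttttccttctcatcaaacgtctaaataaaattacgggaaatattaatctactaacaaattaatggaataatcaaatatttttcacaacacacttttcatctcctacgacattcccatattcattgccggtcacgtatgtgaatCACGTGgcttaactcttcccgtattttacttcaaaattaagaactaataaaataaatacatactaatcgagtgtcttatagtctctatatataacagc
CYP98A8 held 3 such matches and the other windows 1 each, and the match in BGLU20 is also CACGTG, the G-box, whose letters form a subset of CANNTG. The motif is common: CANNTG was in 55.7% of the 19811 windows that could be read, in 53.7% of those of lower DEGs and in 60.1% of those of higher DEGs, and CACGTG in 7.28%, 7.78% and 8.17%. Of the 15 pollen coat windows, 7 (46.7%) held CANNTG. The presence of these letters therefore did not set the lower DEGs apart in number, and it is a description of the windows only.

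All 6 measured genes of phenolamide and pollen flavonol synthesis were lower at an adjusted p under 0.05 and 5 were lower DEGs, with a list median of -3.25. Phenolamides are hydroxycinnamic acids joined to spermidine. SHT (AT2G19070), the acyltransferase that makes that bond, stood at 33.7, 19.3, 49.7 and 18 TPM in columns 1 to 4 of bhlh89,91 and at 201, 229, 256 and 152 TPM in Col-0. TSM1 (AT1G67990), the methyltransferase that acts on the product, stood at 128, 82.8, 186 and 84.6 TPM against 771, 797, 798 and 562 TPM. For neither gene did the highest mutant library reach the lowest Col-0 library, and the log2FCs were -2.78 ± 0.51 for SHT (± SE, n = 4 per group; edgeR, Benjamini-Hochberg adjusted p = 0.000357) and -2.59 ± 0.42 for TSM1 (edgeR, adjusted p = 0.000135). CYP98A8 (AT1G74540), a cytochrome P450 that hydroxylates the phenolamide, fell further, from 176, 206, 220 and 119 TPM in Col-0 to 5.65, 2.96, 7.44 and 4.21 TPM. Its mutant level was 2.81% of Col-0 (log2FC -5.14 ± 0.55; edgeR, adjusted p = 3.38e-06). CYP98A9, its paralogue, had a log2FC of -3.71 ± 0.62, and the pair sits side by side with similar sequence, so the split of reads between them is uncertain. FST1 (AT5G28470), a transporter of pollen flavonol sophorosides that was named after its values were seen, fell from 29.8 to 48.7 TPM in Col-0 to 0.580 to 2.70 TPM.

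The genotype effect on these genes differed between the light conditions, which is partly how they were picked. SHT, TSM1, CYP98A8, CYP98A9 and FST1 are among male fertility genes that the study chose on these libraries. It chose them for a change with light in Col-0 and none in the mutant. Their differences between the light conditions are therefore a description and not independent evidence. In normal light, SHT and TSM1 had log2FCs of 1.05 and 1.07 that did not pass the test (edgeR, adjusted p = 0.15 and 0.084). The difference between the light conditions was -3.84 log2 for SHT and -3.66 for TSM1 (edgeR interaction, adjusted p = 0.0014 and 0.00058), and -4.85 for CYP98A8, -5.71 for CYP98A9 and -4.63 for FST1 (adjusted p = 0.00032, 0.00051 and 0.0020). Across all genes, 24.1% had such a difference at an adjusted p under 0.05. By contrast, of 8 measured genes of the general flavonoid and flavonol steps and their MYB factors, 7 were higher in low light and 0 lower, at an adjusted p under 0.05. The list median was 0.69 in low light and 0.66 in normal light. F3H had a log2FC of 0.23 in low light (edgeR, adjusted p = 0.17). The anthocyanin enzymes DFR and LDOX were under the CPM limit. CHS, which makes the first flavonoid, was at 575, 486, 591 and 386 TPM against 311, 300, 367 and 454 TPM, groups that overlap through mutant column 4 and Col-0 column 4. F3'H, which adds a hydroxyl group to the B ring, was at 15.7 to 19.9 against 6.16 to 7.78 TPM and was the only DEG of the list (log2FC 1.36 ± 0.15; edgeR, adjusted p = 3.66e-06). Without mutant column 2, mutant column 3 or Col-0 column 3 the list had 2 DEGs.

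The pollen coat list, of 15 genes, had 8 lower DEGs, 12 genes lower and 3 higher at an adjusted p under 0.05, and a median of -2.75. Its summed level was 165 to 604 TPM in bhlh89,91 and 2272 to 4254 TPM in Col-0. EXL4 (AT1G75910), an extracellular lipase of the pollen coat, was at 38.9, 0.966, 2.52 and 12.3 TPM in the mutant and at 521, 969, 858 and 437 TPM in Col-0. BGLU20 (AT1G75940), a beta-glucosidase of the tapetum, was at 91.8, 27.1, 76.4 and 56.5 against 820, 960, 944 and 565 TPM. Both pairs of groups are apart, but the mutant libraries differ widely among themselves, with column 1 highest and column 2 lowest for each gene. The log2FCs were -5.65 ± 1.53 for EXL4 (edgeR, adjusted p = 0.00622) and -3.69 ± 0.73 for BGLU20 (edgeR, adjusted p = 0.000683). The run of neighbours on chromosome 1 also holds EXL5 (log2FC -3.94) and EXL6 (-3.93). The next lipases along the chromosome, EXL3, AT1G75890 and AT1G75880, had log2FCs of 0.68, 0.97 and 0.51 and were called higher at an adjusted p under 0.05. These neighbours were named for their position, and because they resemble one another, the counts of single EXL genes are uncertain.

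The oleosin-like glycine-rich proteins GRP14 to GRP20 coat the pollen with lipid droplets. GRP19 (AT5G07550) was at 143, 14.3, 43.3 and 62.8 TPM against 496, 841, 998 and 505 TPM, which do not overlap (log2FC -3.42 ± 1.08; edgeR, adjusted p = 0.0159). GRP17 had a log2FC of -2.75 with an adjusted p of 0.0478 by edgeR, and leaving out any 1 library ended that call (adjusted p 0.051 to 0.11). GRP16 (-5.14) and GRP18 (-1.65) were DEGs. Both transporters of the list, ABCG9 and ABCG31, which export steryl glycosides to the pollen coat, were lower DEGs, with log2FCs of -1.38 and -1.52. The count of 8 DEGs became 5 in a robust edgeR fit, in which EXL4, GRP16 and GRP18 had an adjusted p of 0.012 to 0.021, and also without mutant column 2, without mutant column 4, without Col-0 column 2 or without Col-0 column 3. EXL4 is among the genes whose adjusted p then passed 0.01 (0.019, 0.015, 0.012 and 0.011).

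Of 5 anther lipid transfer proteins, small secreted proteins that carry lipids from the tapetum, 3 were lower DEGs and 1 more was lower at an adjusted p under 0.05 (median -1.50). LTP12, one of the most abundant transcripts of the buds, was at 717, 475, 862 and 488 TPM in the mutant against 1774, 1920, 2116 and 1464 TPM in Col-0. LTPG4 was at 8.38 to 23.8 against 78.9 to 113 TPM and LTPG3 at 2.71 to 10.2 against 39.8 to 67.9 TPM. No group pair overlaps, and the log2FCs were -1.50 ± 0.37, -2.28 ± 0.57 and -2.85 ± 0.69 (edgeR, adjusted p = 0.00325, 0.00365 and 0.00307). The 3 DEGs became 0 without mutant column 2 and 1 without mutant column 3 or Col-0 column 2, although their adjusted p then remained under 0.05. In normal light LTP12 had a log2FC of 1.52, and its genotype effect differed between the light conditions by -3.02 (edgeR interaction, adjusted p = 0.00097).

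**Figure D2:**
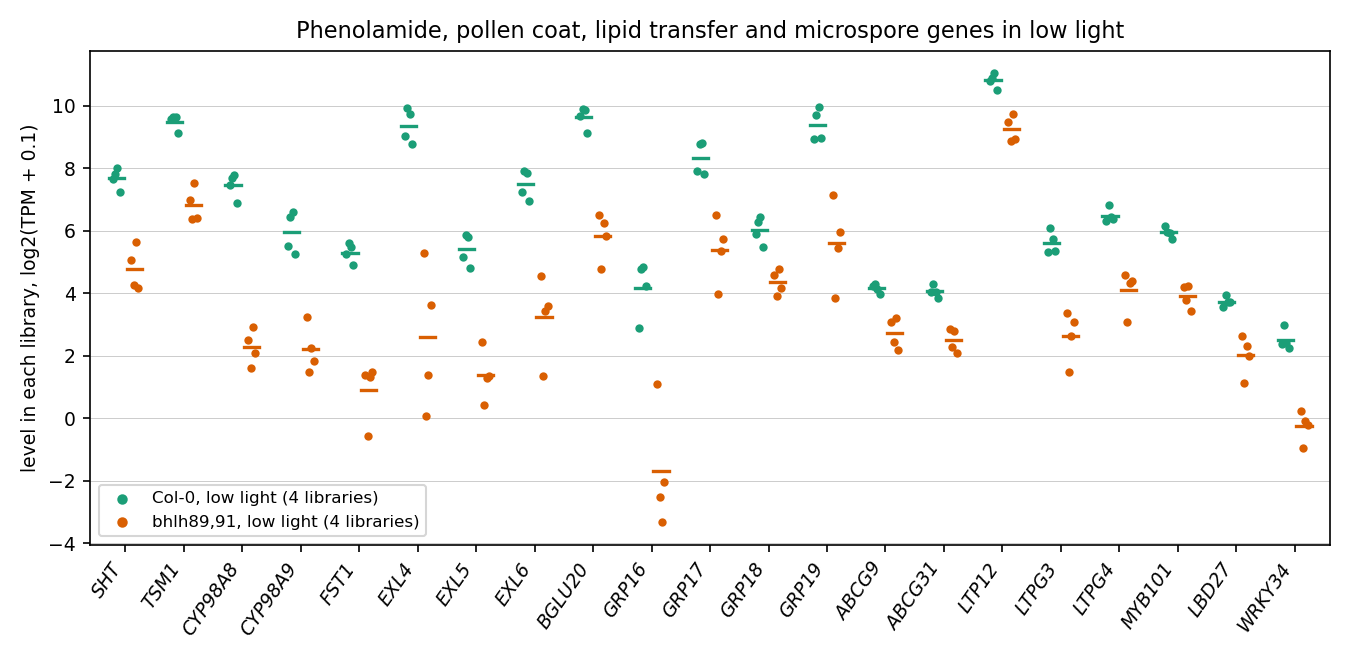
Levels in each low-light library, as log2 of TPM + 0.1, for 21 genes of phenolamide synthesis, the pollen coat, lipid transfer and the microspore. Points are the 4 libraries of Col-0 and the 4 of bhlh89,91 and bars are means of the plotted values. The groups are apart for every gene shown, and the mutant libraries spread most for EXL4 (0.966 to 38.9 TPM) and GRP16 (0 to 2.05 TPM).

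Regulators of the microspore were lower as well. Of 12 measured transcription factors of microspores and pollen, 8 were lower at an adjusted p under 0.05, 3 of them as DEGs, and 0 were higher (median -0.52). MYB101 (AT2G32460), a MYB factor of pollen tubes, was at 18.2, 13.7, 18.8 and 10.7 TPM against 70.6, 62.3, 61.7 and 53.9 TPM (log2FC -2.0 ± 0.25; edgeR, adjusted p = 1.31e-05). LBD27, needed for the asymmetric division of the microspore, was at 2.1 to 6.17 against 11.7 to 15.4 TPM, and WRKY34, a pollen WRKY factor named after its values were seen, at 0.419 to 1.08 against 4.65 to 7.83 TPM. Their log2FCs were -1.62 and -2.85, without overlap. MYB101 and LBD27 did not differ by the test in normal light, and the difference between light conditions was -2.18 and -2.09 (edgeR interaction, adjusted p = 0.00079 and 0.016). The 12 late pollen genes held 4 lower DEGs and 0 higher, and 8 were lower and 2 higher at an adjusted p under 0.05. The higher ones were GEX2 and CNGC18, with log2FCs of 0.36 and 0.35. SKS14, a pollen member of the SKU5-similar family, was at 1.28 to 3.06 against 23.5 to 30.3 TPM (log2FC -3.43 ± 0.27; edgeR, adjusted p = 2.04e-07), and was lower in normal light too (-3.55). ACT12, a pollen actin (log2FC -2.39), SKS13 (-2.98) and the aquaporin NIP4;1 (-3.77, above the CPM limit in Col-0 alone) were the other DEGs, and SKS13 had an adjusted p of 0.014 to 0.025 without any 1 library other than mutant column 2 or Col-0 column 1. A list of 23 male fertility genes that the study chose on these libraries had 20 lower DEGs and a median of -2.59, which is not independent evidence of its direction. The same limit holds for its members in the lists above. Besides phenolamide genes, these include EXL4, EXL5, EXL6, BGLU20, GRP17, ABCG9, LTPG3, LTPG4, MYB101, LBD27 and NIP4;1.

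Among the tapetum transcription factors, those without an insert were higher or did not pass the test. Of 8 tapetum transcription factors, 3 were higher and 2 lower at an adjusted p under 0.05, shares near the 25.5% and 25.1% of all genes. DYT1, at the head of the chain, was at 8.42 to 15.3 against 4.37 to 7.48 TPM, and AMS at 279, 303, 303 and 179 against 155, 142, 138 and 142 TPM. TDF1 (AT3G28470), the step after DYT1, was at 14.5, 20.7, 14.4 and 12 against 9.90, 6.64, 7.70 and 7.01 TPM. These 3 genes show no overlap, and their log2FCs were 0.94 ± 0.24, 0.90 ± 0.14 and 1.00 ± 0.17 (edgeR, adjusted p = 0.00465, 8.02e-05 and 0.000146). TDF1 alone was a DEG, by a margin that is lost without mutant column 2 (0.83), Col-0 column 2 (0.93) or Col-0 column 4 (0.96), and with limma-voom or limma-trend (0.884 to 0.995). Without mutant column 4 the list had 3 DEGs. MS188 (log2FC 0.07), MS1 (0.53) and bHLH10 (0.11) had adjusted p of 0.79, 0.060 and 0.43 by edgeR, and their groups overlap. bHLH89 and bHLH91, which carry the inserts, had log2FCs of -0.90 and -0.36, and the second had an adjusted p of 0.050 to 0.051 without Col-0 column 2 or 3 and of 0.053 in a fit of the low-light libraries alone.

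Sporopollenin, the polymer of the exine, is made by enzymes that AMS and MS188 are known to activate. Of 15 genes for sporopollenin and exine, 1 was a DEG and the median was 0.03. That gene was MS2 (AT3G11980), a fatty acyl reductase, at 223, 204, 162 and 113 TPM against 360, 304, 375 and 429 TPM (log2FC -1.05 ± 0.20; edgeR, adjusted p = 0.000533). The groups do not overlap, and the log2FC was -0.90 without mutant column 4 and -0.97 without Col-0 column 4, short of the fold limit. TKPR1 and TKPR2, the tetraketide reductases of the same pathway, were called higher at an adjusted p under 0.05 with log2FCs of 0.40 and 0.38 and overlapping groups. Without mutant column 2 both lost the call (adjusted p = 0.11 and 0.057), and so they did without Col-0 column 3 (0.071 and 0.057). Among 21 meiosis genes there were 0 DEGs, against 6 higher and 2 lower at an adjusted p under 0.05 (3 higher without mutant column 2), where 25.5% and 25.1% of all genes were called. The share called higher is thus near that of all genes. DMC1, the meiotic recombinase, was at 28.8 to 35.0 against 20.2 to 22.6 TPM (log2FC 0.65 ± 0.07; edgeR, adjusted p = 1.96e-06). Among 14 genes of early anther specification there were 0 DEGs as well, and SPL, which starts the sporogenous lineage, was at 15.4 to 20.3 against 22.9 to 26.7 TPM (log2FC -0.43).

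Among cell death genes, several rose and others fell. They were measured in whole buds, so whether these changes lay in the tapetum was not tested. Of 10 cell death genes, 5 were higher DEGs and 0 lower, with a median of 0.82. At an adjusted p under 0.05, 6 were higher and 3 lower. The summed level of the list was not raised, at 192 to 336 TPM in bhlh89,91 and 285 to 352 TPM in Col-0. CEP1 (AT5G50260), the papain-like protease that carries out tapetal cell death, was at 56.0, 17.0, 72.6 and 49.7 TPM in bhlh89,91 and at 2.0, 0.150, 0.0388 and 0 TPM in Col-0 (log2FC 6.52 ± 0.62; edgeR, adjusted p = 1.15e-06). The lowest mutant library was far above the highest Col-0 library, Col-0 column 1. The nuclease BFN1 was at 4.19 to 8.97 against 2.01 to 3.98 TPM, the ribonuclease RNS3 at 8.23 to 13.6 against 5.23 to 6.04 TPM, and DMP4, a membrane protein of senescing cells, at 2.80 to 9.75 against 0.830 to 0.995 TPM. Their log2FCs were 1.44, 1.08 and 3.01, and RNS3 was below the fold limit without mutant column 1 (0.99) or mutant column 4 (0.97). The remaining DEG was AT2G14095 (log2FC 4.4), and these 4 were named after their values were seen. DMP4 and AT2G14095 passed the CPM limit through the mutant alone, so that they had to differ. The effect of the genotype was larger in low than in normal light for BFN1, RNS3, DMP4 and AT2G14095, by 1.28, 0.93, 2.66 and 3.80 log2 (edgeR interaction, adjusted p = 0.016, 0.0099, 0.0023 and 0.0028). For CEP1 that difference was 4.75 with an adjusted p of 0.48. Its normal-light means were only 0.109 TPM in bhlh89,91 and 0.0287 TPM in Col-0. At such levels the test cannot show whether the genotype effect on CEP1 depended on light. From normal to low light the log2FC of CEP1 was 8.78 in bhlh89,91 and 4.02 in Col-0 (edgeR, adjusted p = 1.3e-06 and 0.069). The 3 genes of this list that were lower at an adjusted p under 0.05 are proteases. They were the vacuolar processing enzyme GAMMA-VPE (log2FC -0.58), the aspartic protease AT4G04460 (-0.97) and the serine carboxypeptidase SCPL48 (-0.53). SCPL48 lost its call without mutant column 2 or 4 or Col-0 column 2 or 3 (edgeR, adjusted p 0.076 to 0.13). RNS1, a secreted ribonuclease, was 1 of the 12 largest rises, at 36.1, 20.8, 35.6 and 32.3 against 6.52, 4.84, 5.02 and 3.19 TPM (log2FC 2.69 ± 0.22; edgeR, adjusted p = 3.34e-07).

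**Figure D3:**
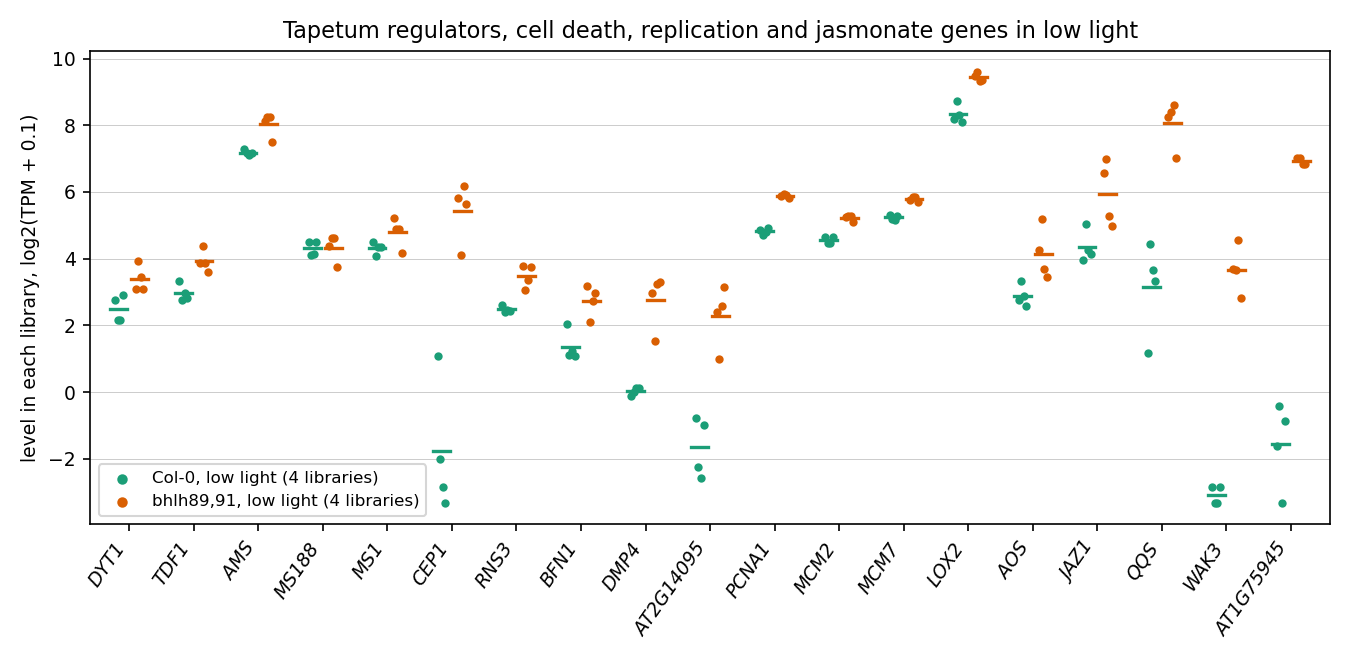
Levels in each low-light library, as log2 of TPM + 0.1, for tapetum regulators, cell death, replication and jasmonate genes and 3 of the largest rises. Points are the 4 libraries per genotype and bars are means of the plotted values. CEP1 and AT2G14095 are near 0 TPM in Col-0, PCNA1 shows 2 tight groups (26.1 to 29.9 and 56.8 to 60.9 TPM), and MS188 and MS1 overlap.

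Genes of DNA replication rose by small and even steps. Of 13 cell division genes, 12 were higher at an adjusted p under 0.05 and 0 lower, where 25.5% and 25.1% of all genes were. The list median was 0.52. PCNA1 (AT1G07370), the sliding clamp of DNA polymerase, was at 58.4, 60.9, 59.8 and 56.8 TPM against 29.1, 26.1, 28.0 and 29.9 TPM and was the only DEG of the list (log2FC 1.08 ± 0.07; edgeR, adjusted p = 4.49e-08). The 6 MCM genes, which encode the replicative helicase, had log2FCs of 0.52 to 0.77, for example MCM7 at 52.1 to 57.6 against 35.6 to 39.6 TPM. The mitotic genes were closer to Col-0, such as the kinase CDKB2;1 (log2FC 0.20), the cyclin CYCB1;2 (0.26) and KN, a syntaxin of the cell plate (0.36). In normal light PCNA1 had a log2FC of -0.18 and MCM7 of -0.20, and the genotype effects differed between the light conditions by 1.26 and 0.77 (edgeR interaction, adjusted p = 4.7e-06 and 1.1e-05). The window of MCM5 is shown because it holds TTTCCCGC, an E2F site, in capitals.
MCM5, AT2G07690, chr2:3527501-3527750, minus strand: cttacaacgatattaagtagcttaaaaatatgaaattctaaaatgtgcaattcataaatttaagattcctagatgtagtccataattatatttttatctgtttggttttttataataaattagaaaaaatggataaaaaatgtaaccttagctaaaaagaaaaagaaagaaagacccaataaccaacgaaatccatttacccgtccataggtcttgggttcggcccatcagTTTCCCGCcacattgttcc
TTTCCCGC, searched on both strands, was in the windows of 3 of the 13 cell division genes (MCM2, MCM5 and MCM6) and in 0.671% of all windows, 0.147% of those of lower DEGs and 0.990% of those of higher DEGs.

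Genes that plants switch on when sugar is short were lower in the mutant. Of 11 such genes, 9 were lower DEGs and 1 a higher DEG, and the median was -1.49. DRM2 (AT2G33830), a dormancy-associated gene, was at 225, 363, 584 and 1125 TPM in bhlh89,91 against 3616, 3255, 3888 and 4502 TPM in Col-0, and SEN1 (AT4G35770), first known from dark-treated leaves, at 15.4, 26.3, 46.8 and 65.4 against 307, 280, 363 and 388 TPM. In both genes mutant column 4 was highest and column 1 lowest, and no library overlaps. The log2FCs were -2.70 ± 0.41 and -3.09 ± 0.51 (edgeR, adjusted p = 6.54e-05 and 0.000143). ASN1, the asparagine synthetase of carbon-starved tissue, was at 90.4 to 190 against 514 to 571 TPM (log2FC -1.86), and DIN10, a raffinose synthase, at 26.7 to 175 against 374 to 447 TPM (log2FC -2.15). DIN10 had an adjusted p of 0.012 without mutant column 2 and 0.011 without mutant column 3. BCAT2, of branched-chain amino acid breakdown and named after its values were seen, had a log2FC of -2.43 ± 0.18. The higher DEG was the sucrose exporter SWEET13, at 4.27 to 7.69 against 0.813 to 2.62 TPM (log2FC 1.6). DRM2, SEN1 and ASN1 were lower in normal light too (log2FC -2.72, -3.53 and -1.67; edgeR, adjusted p = 0.0025, 0.0027 and 0.00025), with interaction adjusted p of 0.98, 0.75 and 0.69, while BCAT2 differed between the light conditions by -1.79 (adjusted p = 0.00050).

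Many auxin genes fell. Of 20 measured, 8 were lower DEGs and 0 higher, where 3.43% and 2.03% of all genes were. At an adjusted p under 0.05, 11 were lower and 3 higher, where 25.1% and 25.5% of all genes were. The median was -0.55. GH3.3 (AT2G23170), which conjugates auxin to amino acids and is induced by it, was at 17.3, 16.8, 17.0 and 25.0 TPM against 139, 146, 144 and 123 TPM (log2FC -2.83 ± 0.17; edgeR, adjusted p = 3.78e-08). GH3.5 was at 58.2 to 108 against 201 to 256 TPM and IAA4, an Aux/IAA repressor, at 18.4 to 31.4 against 65.4 to 69.0 TPM. Their log2FCs were -1.49 and -1.45, and the groups of all 3 genes are apart. YUC2, a flavin monooxygenase of auxin synthesis named after its values were seen, fell from 11.2 to 14.5 TPM in Col-0 to 4.48 to 6.99 TPM (log2FC -1.19). For GH3.3, IAA4 and YUC2 the genotype effect was more negative in low than in normal light, by -2.38, -1.61 and -1.71 (edgeR interaction, adjusted p = 2.7e-05, 5.1e-05 and 7.9e-05). Of 12 gibberellin genes, 1 was a lower DEG, GASA1 (log2FC -1.02), which was under the fold limit without mutant column 1, 2 or 3 or Col-0 column 4 (-0.87 to -0.97). Its relatives GASA4 and GASA6 had log2FCs of 0.68 and 0.69 and were called higher at an adjusted p under 0.05.

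Most jasmonate genes rose, with 3 higher DEGs and 0 lower among 12, and 8 higher and 1 lower at an adjusted p under 0.05 (median 0.90). Over all genes, 25.5% were higher and 25.1% lower at that limit. LOX2 (AT3G45140), a lipoxygenase of jasmonate synthesis, was at 706, 770, 648 and 660 TPM against 290, 427, 318 and 272 TPM (log2FC 1.11 ± 0.11; edgeR, adjusted p = 1.72e-06). AOS, the next enzyme, was at 19.1, 36.7, 12.7 and 10.8 against 6.72, 10.1, 7.21 and 5.94 TPM, and the repressor JAZ1 at 95.6, 126, 39.0 and 31.1 against 15.4 to 33.1 TPM. Mutant columns 1 and 2 were highest for both, and for JAZ1 mutant column 4 lay below Col-0 column 2. VSP1 and VSP2, storage proteins induced by jasmonate, were at 4107 to 5358 against 2465 to 3580 TPM and at 2108 to 2221 against 1249 to 1891 TPM (log2FC 0.87 and 0.63), and they are close in sequence, so the split between them is uncertain. AOS and JAZ1 were named after their values were seen, and AOS had a log2FC of 0.94 without mutant column 2. Without that library the list had 5 genes called higher in place of 8 (also without Col-0 column 1 or 4), and without Col-0 column 2 it had 6 DEGs. LOX2 and JAZ1 differed between the light conditions by 0.95 and 1.82 (edgeR interaction, adjusted p = 0.00067 and 0.021). Of 13 salicylic acid genes, 1 was a higher DEG, WAK3, and 1 a lower DEG, ACD6 (log2FC -2.13). ACD6, which passed the CPM limit through Col-0 alone, was no DEG without any 1 library other than Col-0 column 1 (adjusted p 0.011 to 0.016), and it missed an adjusted p of 0.05 with limma-voom (0.14) and with limma-trend on log2(TPM + 1) (log2FC -0.73, adjusted p = 0.065).

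Of 31 genes for photosystems and Rubisco, 19 were higher and 2 lower at an adjusted p under 0.05, where 25.5% and 25.1% of all genes were. The other 10 did not pass, the median log2FC was 0.20, and 1 gene was a DEG. That was RBCS1B, a small subunit of Rubisco, at 149, 157, 108 and 116 against 53.1, 61.1, 70.4 and 58.4 TPM (log2FC 1.15 ± 0.16; edgeR, adjusted p = 3.24e-05). RBCS1B, RBCS2B and RBCS3B are near-identical copies, so their separate values are uncertain. The early light-induced proteins ELIP1 and ELIP2, which protect chloroplasts from excess light, were at 2.92 to 10.9 against 0.335 to 0.914 TPM and at 2.49 to 4.91 against 0.308 to 0.929 TPM (log2FC 3.28 and 2.33), and were the only 2 DEGs of 13 light genes. Both passed the CPM limit through the mutant alone. With limma-voom their adjusted p was 0.059 and 0.028. Of the photoreceptors, PHYA was at 30.2 to 38.8 against 56.4 to 62.0 TPM (log2FC -0.75 ± 0.07; edgeR, adjusted p = 9.26e-07), and CRY1 and CRY2 had log2FCs of -0.44 and -0.47. PHYB stood at 25.2 to 30.6 against 25.8 to 27.5 TPM (log2FC 0.15; edgeR, adjusted p = 0.035, and 0.14 with limma-trend).

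Of 11 circadian clock genes, 5 were lower and 3 higher at an adjusted p under 0.05, where 25.1% and 25.5% of all genes were. The share called higher is thus near that of all genes. CCA1, PRR7 and GI did not pass, with log2FCs of 0.59, -0.14 and -0.18 (edgeR, adjusted p = 0.070, 0.052 and 0.074). The evening genes TOC1, LUX, PRR5 and ELF3 had log2FCs of -0.86, -0.85, -0.77 and -0.45, without overlap. TOC1 (AT5G61380) was at 35.1, 42.8, 41.9 and 45.3 TPM against 70.0, 72.1, 75.1 and 87.4 TPM (edgeR, adjusted p = 2.14e-06). ELF4, a partner of LUX, was the lower DEG (log2FC -1.21), and the morning genes LHY and PRR9 were the higher DEGs (1.14 and 1.42). PRR9 had an adjusted p of 0.011 to 0.013 without mutant column 1 or 3 or Col-0 column 4, and with limma-voom LHY and PRR9 had 0.018 and 0.015. These 3 DEGs were named because their count was small. Harvest times of the groups were not analysed here. The TOC1 window is shown because it holds the evening element AAAATATCT, printed in capitals as its reverse complement.
TOC1, AT5G61380, chr5:24674713-24674962, plus strand: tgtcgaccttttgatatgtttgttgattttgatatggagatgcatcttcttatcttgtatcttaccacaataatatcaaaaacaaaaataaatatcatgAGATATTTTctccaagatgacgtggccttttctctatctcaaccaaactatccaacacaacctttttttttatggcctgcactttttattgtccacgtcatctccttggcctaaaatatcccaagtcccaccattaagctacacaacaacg
AAAATATCT, searched on both strands, was found in 3 of the 11 clock genes (TOC1, LUX and PRR5) and in 2.54% of all windows, 4.55% of those of lower DEGs and 4.46% of those of higher DEGs. TATCCA, the sugar-responsive element searched likewise, was in 14.1%, 19.1% and 13.9%, and in 4 of the 11 sugar starvation genes. TGTCTC, the auxin response element, was in 10.4%, 9.99% and 9.90%, and in 6 of the 20 auxin genes.

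**Figure D4:**
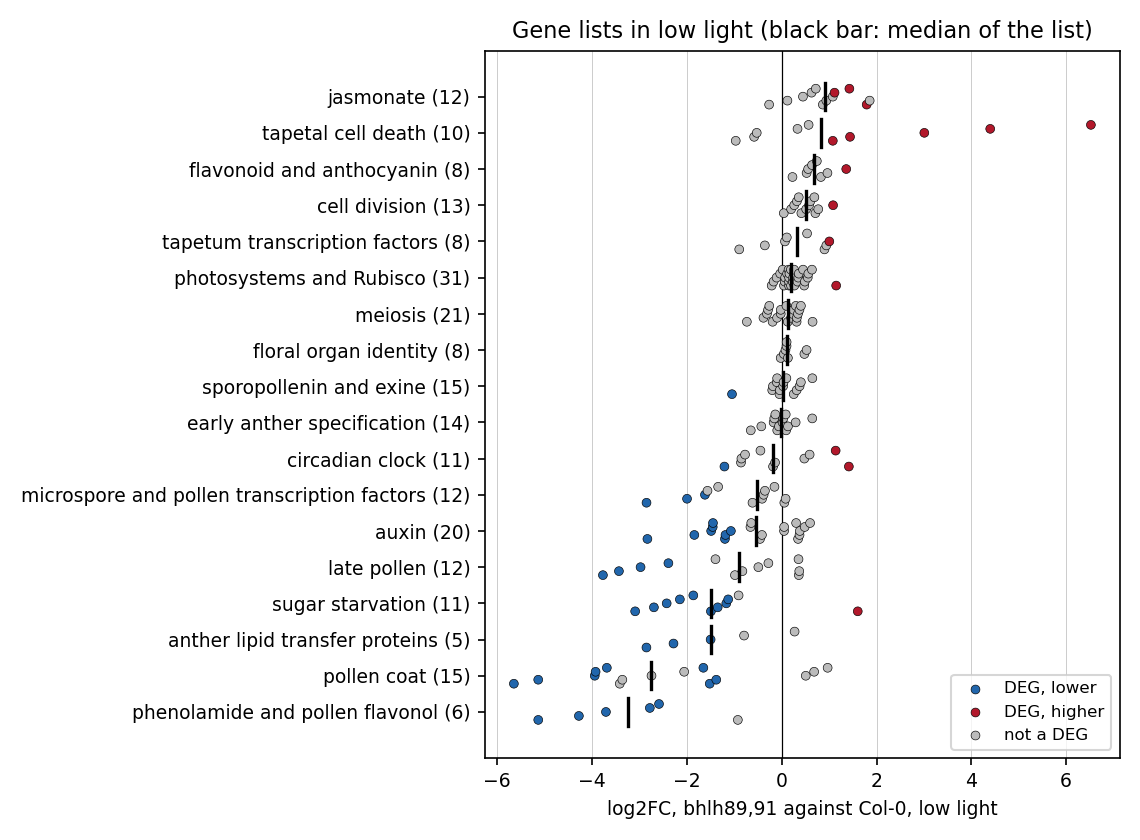
Each point is the log2FC of 1 gene in low light, in 18 of the gene lists with the number of measured genes in brackets, and black bars are list medians. The medians run from -3.25 (phenolamide and pollen flavonol) to 0.90 (jasmonate), while the meiosis, sporopollenin and photosystem lists lie near 0.

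The 12 largest rises among the 619 DEGs that averaged 5 CPM or more and showed no overlap began with 2 genes that were at the floor in Col-0. WAK3, a wall-associated receptor kinase, had 0 to 1 counts in Col-0 and 266 to 854 counts in the mutant. Its mean level was at least 176-fold higher in the mutant (floor of 3 counts per library). AT1G75945, an uncharacterised gene next to BGLU20, had 0 to 3 counts against 504 to 598. Its mean level was at least 188-fold higher, and it stood at 130, 130, 114 and 115 TPM in the mutant. QQS (AT3G30720), an orphan gene with a role in starch content, was at 307, 338, 387 and 129 TPM against 2.17, 21.6, 12.6 and 9.95 TPM (log2FC 4.65 ± 0.58; edgeR, adjusted p = 1.29e-05). All 3 were higher in normal light too, with log2FCs of 7.49, 7.41 and 5.34 and interaction adjusted p of 0.40, 0.30 and 0.61. AT5G44380, of the berberine bridge enzyme family, was at 3.02 to 12.8 against 0.0294 to 0.157 TPM, and the cytochrome P450 CYP709B2 at 2.66 to 8.28 against 0.188 to 0.746 TPM. WRKY46, a stress-responsive WRKY factor, was at 20, 29.8, 12.1 and 3.78 TPM against 1.59, 0.542, 2.42 and 0.748 TPM, with mutant column 4 nearest to Col-0. The effects on AT5G44380 and CYP709B2 were larger in low light by 6.01 and 2.86 (edgeR interaction, adjusted p = 0.0042 and 0.0021). WRKY46 had a log2FC of 3.64 in low light. In normal light its log2FC was -1.19 and did not pass the test (edgeR, adjusted p = 0.19). The difference for WRKY46 was 4.83 (edgeR interaction, adjusted p = 0.0015). The rest of the 12 were CEP1, RNS1, AT1G31080, AT3G16420, AT1G05005 and AT4G24380, with log2FCs of 2.69 to 6.52.

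The 12 largest falls were mostly genes that the mutant hardly expressed in low light. Of the 12, 11 (all but XTH3) passed the CPM limit through Col-0 alone, and 3 of the 12 largest rises (WAK3, AT1G75945 and AT5G44380) passed it through the mutant alone, so that these had to differ and their log2FCs are given as a description. ACA5 (AT1G08065), an alpha carbonic anhydrase, was at 0.539, 0.479, 0.188 and 0.477 TPM against 40.4, 36.7, 30.4 and 44.0 TPM (log2FC -6.43 ± 0.22), and was lower in normal light too (-5.68). XTH3, a cell wall xyloglucan hydrolase and transferase, was at 8.64, 0.239, 0.187 and 1.48 against 93.9, 256, 272 and 180 TPM. Mutant column 1 stood above the other mutant libraries but far below Col-0. PAP21, a purple acid phosphatase, was at 0 to 0.197 against 4.22 to 13.7 TPM (log2FC -7.16 ± 1.40). The pectin lyase-like genes AT3G14040 and AT3G07850, with log2FCs of -7.15 and -6.57, had their lowest Col-0 values in column 1 (10.8 and 11.2 TPM against 28.8 to 45.5 TPM in the rest). The same holds for AT3G28790 and AT3G28830, near each other on chromosome 3, with log2FCs of -6.61 and -6.63, and for AT3G28980. The last had 1 to 3 counts against 69 to 392, and its mean level was at least 85.3-fold lower. AT3G28790 and AT3G28980 had an adjusted p of 0.011 to 0.023 without any 1 library other than Col-0 column 1, and similar copies of these genes make their separate counts uncertain. AT3G26820, an esterase-like gene, was more strongly lower in low than in normal light (log2FC -6.12 and -1.79). AT1G23580, of unknown function, had a log2FC of -6.08 in low light. In normal light its log2FC was 0.89 and did not pass the test (edgeR, adjusted p = 0.60). The differences between the conditions were -4.33 for AT3G26820 and -6.97 for AT1G23580 (edgeR interaction, adjusted p = 0.00016 and 0.0035). The other 2 were AT1G54860 (log2FC -6.84) and AT5G44400 (-6.53).

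Some DEGs lay close together. Runs of at least 3 DEGs in the same direction, consecutive among the 19953 included genes, numbered 8 for lower DEGs (26 genes) and 3 for higher DEGs (9 genes). Genes that were not included were skipped, so members of a run need not be adjacent. Besides the EXL and BGLU20 run, the lower ones held AT1G23560 to AT1G23590 (log2FC -6.08 to -1.33), AT1G20120 to AT1G20132 (-4.38 to -2.59) and the P450 genes CYP71B22, CYP71B23 and CYP71B3 (-2.18 to -1.23). A higher run held the lipid transfer proteins LTP4 and LTP3 with AT5G59305 (1.28 to 1.55). Tandem copies share sequence, so the counts within a run are not independent.

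The low-light DEGs were then read in the normal-light libraries, which the low-light comparison of means does not use. Of the 406 higher DEGs, 79 were higher DEGs in normal light and 0 were lower, where 0.727% of all genes were higher and 0.636% lower. Of the 684 lower DEGs, 78 were lower DEGs and 9 higher. The sign was shared by 81.0% of the higher and 66.1% of the lower DEGs, against 49.2% positive and 50.8% negative over all genes, and the median log2FC in normal light was 0.50 and -0.32. AT3G14040, ACA5, SKS14 and DRM2 were lower at an adjusted p under 0.05 in both conditions. For AT3G14040 the normal-light Col-0 libraries were very uneven, with a mean of 9.58 TPM and an SD of 18.5 TPM. Its normal-light call is therefore uncertain. Phenolamide and pollen coat genes had list medians of 0.73 and 0.83 in normal light, against -3.25 and -2.75 in low light. CYP98A9, LTP12, GRP18 and ABCG9 had log2FCs of 2.0, 1.52, 1.80 and 1.27 in normal light (edgeR, adjusted p = 0.047, 0.012, 0.018 and 0.014).

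**Figure D5:**
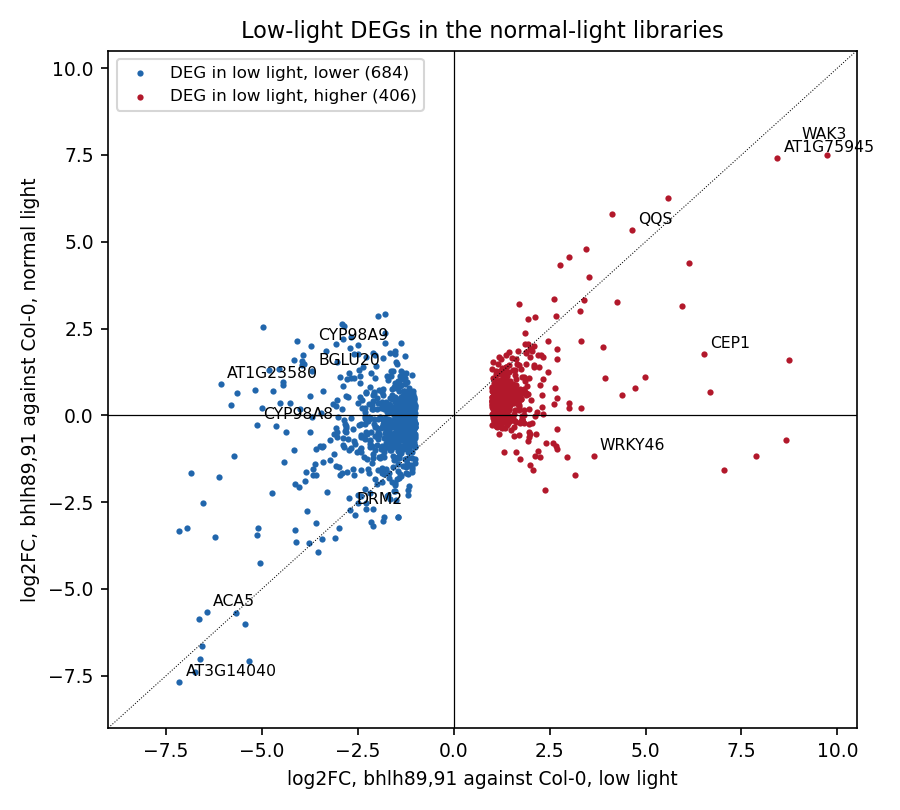
The 1090 low-light DEGs, with the log2FC of bhlh89,91 against Col-0 in low light on the x axis and in normal light on the y axis; the dotted line marks equal values. Of the higher DEGs (red), 81.0% lie above 0 in normal light, and of the lower DEGs (blue), 66.1% lie below it.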

How the data were processed

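Total RNA of whole buds before pollen mitosis I was sequenced in 16 libraries (poly-A selected). The authors quantified the reads with Salmon (also in the submitters' processing notes) against a reference set of Arabidopsis transcripts, summed the transcripts to genes, and deposited an estimated count per gene and library. TPM values, deposited by the authors beside the counts, are the levels given here. No genome build is named, so genes were joined by locus tag to RefSeq TAIR10.1 (21144 of 21309 tested genes, 99.2%), from which promoter windows and gene order were read. Salmon splits reads between similar copies by estimate.

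Estimated counts were rounded and tested in R 4.3.3 with edgeR 4.0.16. Genes that reached 1 CPM in any of the 16 libraries were fitted with TMM factors (0.977 to 1.02), 1 mean per group and 12 residual degrees of freedom. Quasi-likelihood F tests were adjusted by Benjamini-Hochberg over all 21309 genes, and the 19953 genes described were taken from that table. Interaction tests compared the genotype log2FC in low and normal light. SE was taken as the size of the log2FC over the root of F, and SDs between replicates use a prior count of 2. A group is at the floor where none of its libraries exceeds 3 counts. Folds given as at least a value set the mean level of the other group against 3 counts in each library. Depths of 21300083 to 23346158 counts set the counting error, and every pair of replicates differed by more than it (chi-square per gene 5.67 to 22.9). The replicates are called biological. The p-values set a difference of group means against the spread between replicates, which was estimated from all 16 libraries together.

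The genes compared and the 29 gene lists (310 of 365 loci among the 19953) were chosen with earlier results of these data known. Named are all tapetum transcription factors, the 12 largest rises and 12 largest falls among DEGs that averaged 5 CPM or more and showed no overlap, and from each list up to 4 genes with an adjusted p under 0.05 and the highest mean TPM. Genes named beyond this rule were named after their values were seen. On simulated data with 20905 genes, 96 of 100 genes changed by 1.5 log2 and 99 of 100 changed by 2 log2 were called in the low-light comparison, with 0 others. The changed genes were drawn from well-counted genes, and all other genes had the same mean in every group. These rates therefore do not carry over to genes near the floor, or to data in which many genes differ. The alternatives were limma-voom and limma-trend on TPM (limma 3.58.1), DESeq2 1.42.0, RLE factors or library size in place of TMM, other filters, a fit of the 8 low-light libraries, a robust fit, no fold limit, and each low-light library left out in turn. Columns named 1 to 4 could be matched to groups and not to the numbered replicates of the labels.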

Additional observations from a re-analysis of the deposited data

Results flagged for a closer look

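In 24 of 306 groups of 4 libraries, 1 library of a named gene lay far from the other 3 by Dixon's test. Chance gives about 1 in 20 such groups. In the mutant, column 1 was high for XTH3 (8.64 TPM) and GRP16 (2.05 TPM), column 2 was low for FST1 (0.580 TPM) and high for OPR3 (176 TPM) and AT5G60390 (2206 TPM), and column 3 was low for RBCS1A (5460 TPM) and VSP1 (4107 TPM). Mutant column 4, which also stood apart on the second principal component, was low for the glucanase AT4G14080 (729 TPM) and for PHYB (25.2 TPM) and high for GH3.3 (25.0 TPM) and ACT2 (177 TPM). In Col-0, column 1 was high for CEP1 (2.0 TPM), BFN1 (3.98 TPM) and AT5G60390 (1769 TPM), column 2 for AT1G54860 (26.9 TPM), VSP1 (3580 TPM), VSP2 (1891 TPM) and OPR3 (106 TPM), and column 3 for SKS14 (30.3 TPM). Column 3 was low for TKPR1 (262 TPM) and column 4 for TSM1 (562 TPM), while column 4 was high for GASA1 (55.6 TPM), PRR5 (79.5 TPM) and LUX (65.1 TPM).

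The genotype log2FC differed between low and normal light for 68 of the 153 named genes by edgeR's interaction test (adjusted p under 0.05), where 24.1% of all genes did. The named genes were largely chosen for their low-light difference, so this count is a description. The low-light minus normal-light difference was negative for phenolamide and flavonol genes (SHT -3.84, TSM1 -3.66, CYP98A8 -4.85, CYP98A9 -5.71, FST1 -4.63), for the pollen coat (EXL4 -6.30, EXL5 -5.39, EXL6 -5.65, BGLU20 -4.96, GRP18 -3.46, ABCG9 -2.65, ABCG31 -1.90) and for lipid transfer (LTP12 -3.02, A7 -1.33). It was also negative for microspore and pollen genes (MYB101 -2.18, LBD27 -2.09, WRKY34 -2.71, AGL30 -0.24, ACT12 -2.61, TUA1 -0.42) and for MYB26, a factor of anther opening (-1.07). Further negative differences were found for auxin (GH3.3 -2.38, GH3.5 -0.69, IAA4 -1.61, IAA16 -0.61, YUC2 -1.71), clock and light (TOC1 -0.58, LUX -0.53, PHYA -0.55), proteases (GAMMA-VPE -0.60, AT4G04460 -1.71) and for BCAT2 (-1.79), ACD6 (-2.32), AT1G12790 (-0.43), AT3G26820 (-4.33) and AT1G23580 (-6.97).

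The difference was positive for cell death genes (RNS3 0.93, BFN1 1.28, DMP4 2.66, AT2G14095 3.80), replication and division (PCNA1 1.26, MCM2 0.92, MCM7 0.77, KN 0.37, CYCB1;2 0.31), jasmonate (LOX2 0.95, AOS 1.64, JAZ1 1.82, VSP1 0.73) and salicylic acid (SARD1 3.39, ICS1 0.32). It was positive too for the regulators TDF1 (0.70), ARF8 (0.38), AP1 (0.18), AP3 (0.22) and MYB28 (0.55), for the superoxide dismutases CSD1 (0.64) and FSD3 (0.54), and for DMC1 (0.49), LHCB5 (0.20), GASA4 (0.76), CYP83A1 (1.57) and AT5G60390 (0.46). Among the largest rises it was positive for WRKY46 (4.83), CYP709B2 (2.86), AT5G44380 (6.01), AT4G24380 (3.11) and AT1G05005 (1.18).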

How the results depend on the processing

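The counts of DEGs held within 1.5 times of 406 higher and 684 lower in every fit but 2 kinds. limma-trend on log2(TPM + 1) gave 243 higher DEGs, all among the 406. With no fold limit, 3729 genes were higher and 3653 lower. Leaving out 1 library gave 347 to 460 higher and 600 to 773 lower DEGs. The higher share of DEGs was 37.2%, and 30.1% to 40.5% over all settings, and the scalings moved the median of all genes by less than 0.03 log2. For the 153 named genes, 2539 of 2751 values kept direction and call, 207 lost a call, 2 gained one and 3 reversed, in 49 genes. Reversed was MS188 alone (log2FC 0.07), which went below 0 without mutant column 2, mutant column 3 or Col-0 column 2 and ran from -0.021 to 0.22 as each library was left out. MS1 passed an adjusted p of 0.05 without mutant column 4 (0.013) and in the fit of the low-light libraries alone (0.035). limma-voom ended the DEG call of AT3G14040, AT3G28980, AT3G28830, AT3G28790, AT3G07850, AT4G24380, AT1G31080 and WRKY46 (adjusted p 0.013 to 0.044), of ACD6 (0.14), ELIP1, ELIP2, LHY and PRR9 (0.015 to 0.059) and of TDF1, by fold. DESeq2 ended those of GRP16 and NIP4;1 (0.066 and 0.016), and a robust fit those of EXL4, GRP16, GRP18, SKS13, AT3G28980 and AT3G28790 (0.012 to 0.021). limma-trend on log2(TPM + 0.1) ended those of LTPG3, LTPG4, EXL6 and GRP18 (0.010 to 0.026) and of TDF1, by fold, and on log2(TPM + 1) those of GRP18 (0.013) and ACD6 (0.065) and, by fold, of TDF1, RNS3 and LHY. The fit of the low-light libraries alone ended that of AOS (0.010). The cause was not tested. Of 1260 list counts, 104 moved by over 1.5 times, all of them in lists with 8 called genes or fewer. No paired analysis was possible because the columns do not carry the replicate numbers of the labels. With 4 libraries a group, genes near 1 CPM and genes that vary between mutant libraries have the widest errors.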
